A study of Mus musculus with 66 samples.

Results

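2900052N01Rik (ENSMUSG00000099696) is annotated as a long non-coding RNA gene, and it is described here as 1 gene of 45706 in the deposited tables, across all 66 RNA-seq libraries of mice with spontaneous mutations of Rorb. It was selected on measured values: its level was near zero in cerebellum and was lower in every Rorb h5/h5 tissue and in Rorb h4/h4 spinal cord than in the matched controls. Those 7 contrasts are therefore given as values only, with no test. Tests are given for 12 further comparisons, for 3 differences between tissues in a mutant effect and for 1 correlation across animals. These are not free of the choice: the C57BL/6J spinal cords and all DBA/1J libraries were the high side of the contrasts used, and 8 of the 12 comparisons, all but the 4 of mutant brains against C57BL/6J, hold such libraries. The 3 differences between tissues hold the C57BL/6J cords, and the correlation holds the Rorb h4/h4, Rorb h5/h5 and DBA/1J animals.

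Long non-coding RNAs are transcripts that are spliced and usually polyadenylated like messenger RNAs but have no long open reading frame, and many of them are restricted to one tissue or brain region. Some act in the nucleus on neighbouring genes, and for many, including the one described here, no role is stated in the sources used. Rorb encodes the retinoid-related orphan receptor beta, a nuclear receptor that works as a transcription factor in retina, in layer 4 of the cortex and in inhibitory interneurons of the spinal cord. Receptors of its group bind DNA at half-sites with the core letters AGGTCA.

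The libraries are poly-A RNA from brain hemisections and whole spinal cords of C57BL/6J and DBA/1J controls and of 5 homozygous mutants, written here as h1 (Rorb h1/h1) to h5 (Rorb h5/h5), aged 7.9 to 9.6 weeks, and from cortex, hippocampus and cerebellum of DBA/1J and Rorb h5/h5 mice aged 7 weeks. The controls were C57BL/6J for the first 4 mutants and DBA/1J for Rorb h5/h5. Each allele arose once, in 1 strain. The h1 allele, a duplication that holds the first exon of Rorb1 and 5′ non-coding sequence, arose on C57BL/6J. Alleles h2 and h3, whose causal mutations are not known, arose on the albino strain B6(Cg)-Tyr c-2J/J. The h4 allele, a premature stop in Rorb, arose on B6.129S7-Il1r1 tm1/mx/J as the source spells it, which also carries a targeted Il1r1 allele. The h5 allele, loss of the Rorb1 start codon, arose on DBA/1J. The C57BL/6J controls carry neither the Tyr nor the Il1r1 allele, so for h2, h3 and h4 the Rorb allele and the strain background cannot be told apart. Groups held 3 animals, or 4 for h2, h3 and h4, of both sexes. In whole tissue, a lower level can mean fewer cells that express the gene or less RNA per cell, and these cannot be told apart.

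Total expected counts ran from 32889755 to 59120536 per library. Of 16 regional marker genes, 14 were higher in every library of their own tissue than in any other dissected or spinal cord library, the exceptions being Wfs1 and Fezf2. Rorb itself, the mutated gene, was at 37.1 to 61.6 CPM (expected counts scaled to a common library total) in C57BL/6J brain and spinal cord, at 9.998 to 15.4 CPM in h4 brain and at 7.12 to 10.1 CPM in h4 spinal cord. It was at 27.1 to 37.8 CPM in h1 and h2 brains, within 52.0 to 55.6 CPM in h3 brains, and above every DBA/1J library in all 5 tissues of h5. The animals labelled Rorb h5/h5 replicate 3 in cortex, hippocampus and cerebellum were labelled female, but these 3 libraries carried Ddx3y at 57.8 to 86.2 CPM and Xist at 0.320 CPM or less, so h5 values in the dissected regions are also given without them. A further library, DBA/1J brain replicate 1, lacked cerebellar RNA. Its Gabra6, a GABA receptor subunit of cerebellar granule cells, was at 0.155 CPM against 48.2 to 127.4 CPM in the other 23 brains, and the summed level of 8 cerebellar neuron markers was 215.6 CPM against 602.4 to 1109 CPM.

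The gene lies on chromosome 9 of GRCm38, at chr9:46913603-46927366 on the plus strand, a span of 13764 bases. Because this transcript has no protein, its promoter is shown as the one sequence that can be compared with other genes: the 300 bases from 250 before the annotated start to 50 after it (RefSeq, GRCm38.p6, chr9:46913353-46913652, plus strand, 5′ to 3′), with the CCAAT box, read on the opposite strand as ATTGG, in capitals.

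2900052N01Rik promoter: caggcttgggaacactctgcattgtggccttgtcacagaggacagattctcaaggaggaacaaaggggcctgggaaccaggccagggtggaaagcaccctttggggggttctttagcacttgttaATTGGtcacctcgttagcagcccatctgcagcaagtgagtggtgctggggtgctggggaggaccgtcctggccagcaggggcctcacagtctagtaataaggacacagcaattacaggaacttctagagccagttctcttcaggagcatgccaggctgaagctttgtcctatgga

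Its GC content was 54.7%, against a median of 52.7% over 32851 promoters of the same length. Searched on both strands, the window held 1 CCAAT, at position -125 from the start, a motif found in 37.4% of these promoters. The E-box CANNTG occurred 3 times, at -134, -103 and -94, and 72.3% of promoters held at least 1. No match was found for AGGTCA (in 16.3% of promoters), TATAAA (13.6%) or GGGCGG (35.7%), or for the palindromic nuclear factor I motif (0.0365%). These are letters in a 300-base window and do not show which factors bind.

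The gene was highest in hippocampus, at like levels in cortex and brain hemisections (medians 26.1 and 26.9 CPM), several-fold lower in spinal cord and close to the limit of counting in cerebellum. Its level ran from 31.4 to 54.5 CPM in 6 hippocampi, 20.99 to 35.8 CPM in 6 cortices, 19.5 to 38.7 CPM in 24 brains, 1.06 to 7.13 CPM in 24 spinal cords and 0.0792 to 0.709 CPM in 6 cerebella. No spinal cord reached the lowest brain, and no cerebellum reached the lowest spinal cord. On the TPM scale, which is per transcript length, its mean was 25.4 in brain, where 20.2% of the genes with a TPM above 0 were higher. The share of genes above it was 17.96% in hippocampus, 23.3% in cortex, 42.8% in spinal cord and 70.6% in cerebellum. The average length of the transcripts estimated to be in use hardly differed between well-counted tissues, at a median of 2269 bases in brain, 2269 in cortex, 2271 in hippocampus and 2261 in spinal cord.

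**Figure D1:**
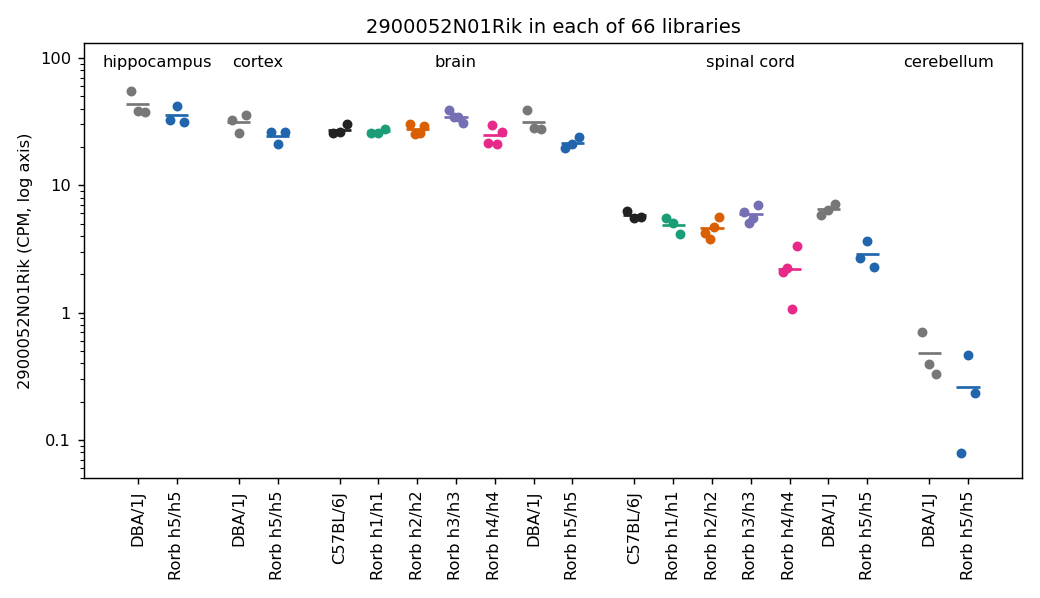
Level of 2900052N01Rik in each of 66 libraries, in CPM on a log axis, by tissue and genotype; each point is 1 library and each bar the mean of its group. Hippocampus, cortex and brain lie above 19 CPM, all spinal cords at or below 7.13 CPM and all cerebella below 1 CPM, and the h4 and h5 spinal cords lie below the other cords.

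Ordered by their means, the 20 groups fell into blocks with few gaps. From DBA/1J hippocampus, at 43.4 ± 9.63 CPM (SD, n = 3), through h5 cortex, at 24.4 ± 2.92 CPM (SD, n = 3), each group overlapped the next, and h5 brain was the last group of this block, at 21.5 ± 2.29 CPM (SD, n = 3). No spinal cord group overlapped it, and no cerebellum group overlapped a spinal cord group. Among spinal cords, DBA/1J stood at 6.45 ± 0.654 CPM (SD, n = 3), h3 at 5.91 ± 0.832 (SD, n = 4) and C57BL/6J at 5.84 ± 0.400 (SD, n = 3), which overlapped in sequence. C57BL/6J did not overlap h1, at 4.90 ± 0.718 CPM (SD, n = 3), and the share of all genes with that gap was not computed. Below these, h2 was at 4.58 ± 0.800 CPM (SD, n = 4), with a gap to h5, at 2.88 ± 0.714 CPM (SD, n = 3), and h5 overlapped h4, at 2.18 ± 0.933 CPM (SD, n = 4). The largest relative spread outside cerebellum was that of h4 spinal cord, whose coefficient of variation was 42.8%, against 6.84% in the C57BL/6J cords.

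Spinal cord was compared with brain of the same genotype in both control strains. C57BL/6J brains held 25.7, 26.03 and 30.2 CPM, and the spinal cords of the same animals 6.30, 5.55 and 5.67 CPM. Every cord lay below every brain. The log2 fold change was -2.24 (SE 0.09, adjusted p = 1.75e-10, edgeR's quasi-likelihood test with Benjamini-Hochberg adjustment), in a comparison in which 56.9% of genes passed an adjusted p of 0.05. In DBA/1J the brains held 38.7, 27.9 and 27.8 CPM and the cords 5.82, 6.39 and 7.13 CPM, and again no values overlapped. For neither strain was the share of single genes without overlap computed. The log2 fold change in DBA/1J was -2.32 (SE 0.13, edgeR adjusted p = 4.81e-07), with 50.8% of genes passing. Without the brain that lacked cerebellar RNA it was -2.16. These tests did not pair the animals. With the animal as a block the log2 fold change was -2.24 in C57BL/6J (edgeR adjusted p = 1.07e-10) and -2.31 in DBA/1J (edgeR adjusted p = 3.05e-06).

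Hippocampus was compared with cortex in DBA/1J. The hippocampi held 54.5, 38.4 and 37.3 CPM and the cortices of the same animals 32.8, 25.9 and 35.8 CPM. All 3 hippocampi were above all 3 cortices, by a narrow margin between the lowest hippocampus and the highest cortex. An exact permutation test of the CPM values gave p = 0.1, the smallest that 3 against 3 allows. What share of single genes separated these libraries was not computed. The difference did not pass the edgeR test, which did not pair the animals (log2 fold change 0.42, SE 0.16, edgeR adjusted p = 0.104, with 20.6% of genes passing). With the animal as a block it was 0.41 (SE 0.13, edgeR adjusted p = 0.0655) and did not pass either. DESeq2, another count test, gave an adjusted p of 0.0458 for the same libraries. The summed level of 6 choroid plexus markers was 830.4 to 3405 CPM in these hippocampi and 18.3 to 476.2 CPM in the cortices, and the part of that tissue in the difference was not tested.

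In cerebellum the 3 DBA/1J libraries held 25, 17 and 14 expected counts of the gene, or 0.709, 0.391 and 0.330 CPM. The log2 fold change against cortex, which the choice of the gene used, was -6.20 (SE 0.23), in a comparison in which 58.1% of genes passed. No cerebellum overlapped a cortex, and for how many single genes this held was not computed. The h5 cerebella held 3, 17 and 8 counts. Summed over 3 libraries this is 28 counts (exact Poisson 95% interval 18.6 to 40.5) against 56 (42.3 to 72.7) in DBA/1J, intervals that cover counting error only. The h5 and DBA/1J cerebella overlapped, and the h5 log2 fold change was -0.86 (SE 0.57), with 0.012% of genes passing. It ranged from -1.60 to -0.42 when single libraries were left out.

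The control strains were compared with each other. DBA/1J brains exceeded C57BL/6J brains by a log2 fold change of 0.25 (SE 0.12, edgeR adjusted p = 0.247, with 11.2% of genes passing), which did not pass the test. Leaving out the DBA/1J brain without cerebellar RNA brought this to 0.08. In spinal cord the difference was 0.16 (SE 0.11, edgeR adjusted p = 0.332, with 21.3% of genes passing), with overlapping libraries, and it did not pass either.

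Among the brains of the mutants set against C57BL/6J, none passed the edgeR test. All comparisons within a tissue share the same 3 C57BL/6J libraries, which in spinal cord are also the controls of the h4 contrast used to choose the gene. The h1 brains held 25.9, 25.9 and 27.5 CPM, inside the control range, with a log2 fold change of -0.04 (SE 0.08, edgeR adjusted p = 0.998). In that comparison edgeR called 0% of genes, with 745 of 17603 at an unadjusted p under 0.05 and 17 genes called by DESeq2. The h2 brains held 30.4, 25.1, 25.6 and 29.0 CPM and overlapped the controls on both sides, at 0.03 (SE 0.08, edgeR adjusted p = 0.966, with 0.136% of genes passing). The h4 brains were split, at 21.5, 29.7, 21.1 and 26.3 CPM, with a log2 fold change of -0.11 (SE 0.11, edgeR adjusted p = 0.705, with 0.703% of genes passing), or -0.029 without C57BL/6J replicate 3.

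Of the 4 mutants set against C57BL/6J, h3 alone did not overlap the control brains. The h3 brains held 38.7, 34.2, 34.2 and 30.6 CPM against at most 30.2 CPM in the controls. The log2 fold change was 0.33 (SE 0.08, edgeR adjusted p = 0.203, with 0.164% of genes passing), which does not pass, and an exact two-sided permutation test of the CPM values gave p = 0.0571, where 0.0286 is the smallest p that 4 against 3 allows. DESeq2 called it, at an adjusted p of 0.0264. The h3 mice were aged 8 to 9.6 weeks, the oldest having the highest value. Most h3 brains were labelled male and most control brains female, and the highest control, at 30.2 CPM, was male. With labelled sex as a covariate the log2 fold change was 0.28 (edgeR adjusted p = 0.371). Of 13 summed cell type marker lists, 2 did not overlap between these groups, astrocytes and endothelium, both lower in h3, and of single genes with a mean of at least 1 CPM 9.03% did not overlap between the same libraries. The median cerebellar neuron sum of h3 was 0.817 of that of the controls. Their part in the difference was not tested.

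In spinal cord, no comparison of h1 to h3 passed. The h1 cords, at 5.50, 5.09 and 4.11 CPM, all lay below the lowest control of 5.55 CPM, with a log2 fold change of -0.17 (SE 0.12, edgeR adjusted p = 0.654, with 0.289% of genes passing). Without h1 replicate 3 it was -0.059, the smallest of a range that reached -0.27 when single libraries were left out. The exact permutation p was 0.1, the smallest that 3 against 3 allows. How many single genes did not overlap between the h1 and control cords was not computed. The h2 cords held 4.201, 3.80, 4.68 and 5.66 CPM, of which the last reached the control range, at -0.35 (SE 0.12, edgeR adjusted p = 0.172, with 2.09% of genes passing). Without that replicate, replicate 4, the log2 fold change was -0.46 and the adjusted p 0.0447. The h3 cords, at 6.19, 5.02, 5.51 and 6.93 CPM, lay on both sides of the controls, at 0.05 (SE 0.12, edgeR adjusted p = 0.906, with 1.01% of genes passing).

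The h4 and h5 contrasts that led to the choice of the gene are given as values. In h4 spinal cord the 4 libraries held 2.10, 2.22, 1.06 and 3.34 CPM, from 124, 89, 45 and 165 counts, and every one lay below the lowest C57BL/6J cord. The log2 fold change was -1.38 (SE 0.24), in a comparison in which 1.75% of genes passed, and it ranged from -1.68 to -1.16 when single libraries were left out. With the replicate number as a block it was -1.72. Rorb was at 7.12 to 10.1 CPM in the same cords, and the h4 cord with the least 2900052N01Rik, replicate 3, was the one with the most Rorb. Of 13 cell type marker lists, 5 had summed levels that did not overlap between h4 and control cords: astrocytes, endothelium and inhibitory neurons were lower, and microglia and meninges were higher. Of single genes with a mean of at least 1 CPM, 13.1% did not overlap between these libraries. The ratios of the median sums, h4 to control, stayed between 0.891 for endothelium and 1.21 for meninges over the 13 lists. Their part in the lower level was not tested.

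In h5 spinal cord the libraries held 2.67, 3.68 and 2.30 CPM against 5.82, 6.39 and 7.13 CPM in DBA/1J, with no overlap. This is a log2 fold change of -1.20 (SE 0.17), and 0.00581% of genes passed in that comparison. It ranged from -1.40 to -1.06 when single libraries were left out. Rorb was higher in the h5 cords, at 45.4 to 50.6 CPM, than in DBA/1J cords, at 39.4 to 41.1 CPM. None of the 13 cell type sums separated the h5 and DBA/1J cords, where 11.3% of single genes did not overlap, although 1 h5 cord, replicate 3, had a meninges sum of 543.6 CPM against at most 98.7 CPM in the other 5.

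In h5 brain the libraries held 19.5, 21.2 and 23.997 CPM, all below the lowest DBA/1J brain of 27.8 CPM. Their log2 fold change against DBA/1J was -0.62 (SE 0.12). In that comparison 0% of genes passed in edgeR, with 1002 of 17299 at an unadjusted p under 0.05. The DBA/1J brain without cerebellar RNA was also the one with the most 2900052N01Rik, and without it the log2 fold change was -0.46, with no overlap between the remaining libraries. Of the 13 cell type sums, 1 did not overlap between h5 and DBA/1J brains, that of cerebellar neurons, at 819.7 to 1024.5 CPM in h5 against 732.9 and 754.8 CPM in the other two DBA/1J brains and 215.6 CPM in replicate 1, and 14.8% of single genes did not overlap. The choroid plexus sum had a median 1.36 times that of DBA/1J. Their part in the lower level of 2900052N01Rik was not tested. In h5 cortex the values were 26.01, 20.99 and 26.1 CPM against 32.8, 25.9 and 35.8 CPM, with an overlap and a log2 fold change of -0.39 (SE 0.14). Without h5 replicate 3, whose sex went against its label, it was -0.46, and it ranged from -0.51 to -0.28 over single libraries left out. In h5 hippocampus the values were 32.3, 42.3 and 31.4 CPM against 54.5, 38.4 and 37.3 CPM, again overlapping, with a log2 fold change of -0.31 (SE 0.16), or -0.22 without replicate 3, in a comparison in which 0.0118% of genes passed. It ranged from -0.46 to -0.13 when single libraries were left out, and -0.13 (SE 0.13) was the value without DBA/1J replicate 1, the hippocampus at 54.5 CPM. The h5 hippocampus with the most 2900052N01Rik, replicate 2, had the lowest choroid plexus sum of the 6, at 149.7 CPM. In cerebellum the value without replicate 3 was -0.79.

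**Figure D2:**
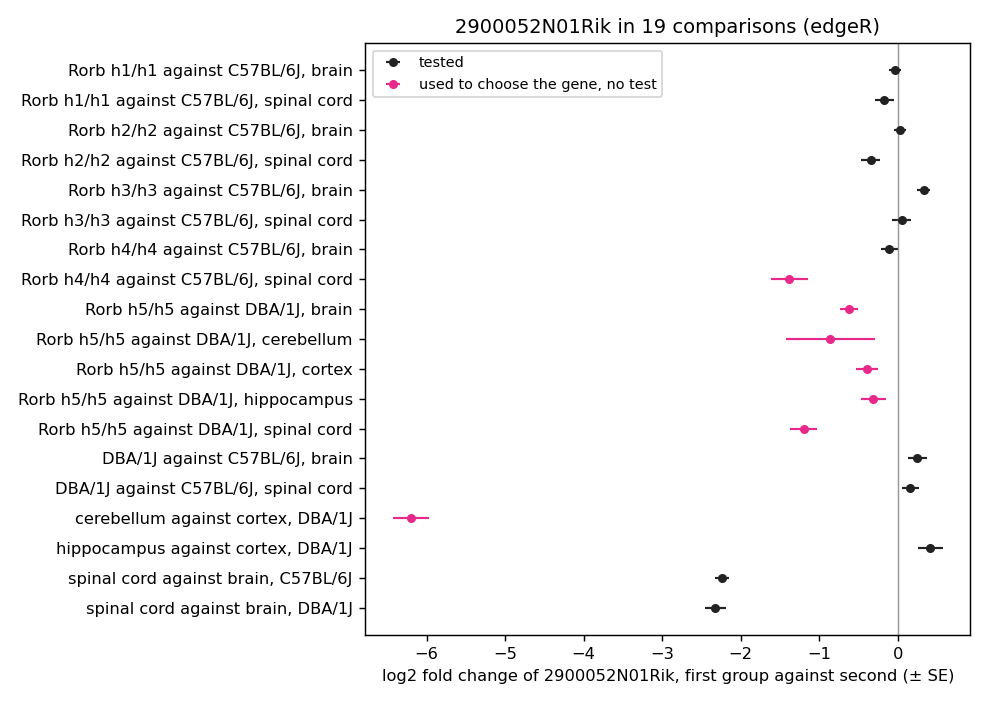
Log2 fold change of 2900052N01Rik in 19 comparisons from edgeR, first group against second, with bars of 1 standard error; black points were tested and pink points were used to choose the gene. Of the black points only those of spinal cord against brain, near -2.24 and -2.32, lie far from 0, and the pink points all lie below 0.

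The brain hemisection and spinal cord of each of 24 animals allowed a ratio within animals. Brain held a median of 4.69 times the spinal cord level in C57BL/6J, 5.09 in h1, 6.04 in h2, 6.23 in h3 and 4.37 in DBA/1J. The ratio was 7.28 in h5, from 5.76 to 10.4, and 11.8 in h4, from 7.89 to 19.9, where every h4 animal exceeded every animal of C57BL/6J, h1, h2, h3 and DBA/1J. The low h4 and h5 cords were used to choose the gene, so these high ratios follow in part from that choice. The share of all genes with such ratios was not computed. Whether the mutant effect differed between the tissues was tested for h1, h2 and h3. The difference of log2 fold changes, spinal cord minus brain, was -0.13 (SE 0.14) in h1, -0.38 (SE 0.15) in h2 and -0.28 (SE 0.15) in h3, and none passed in edgeR, at adjusted p of 1, 0.855 and 1. The h2 difference had an unadjusted p of 0.0237, or 0.0105 with the animal as a block.

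Animals high for their group in brain were not detectably high for their group in spinal cord. This was the one relation tested across animals. Over 24 animals, deviations from the group means had a Pearson r of 0.23 (permutation p = 0.591 over 100000 two-sided shuffles within genotype) and a Spearman rho of 0.085 (permutation p = 0.742). Without the 2 animals farthest from the median in brain, DBA/1J replicate 1 and h4 replicate 2, r was 0.34 (permutation p = 0.518). The sign rested on h4, since without the 4 h4 animals r was -0.22 (permutation p = 0.325).

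**Figure D3:**
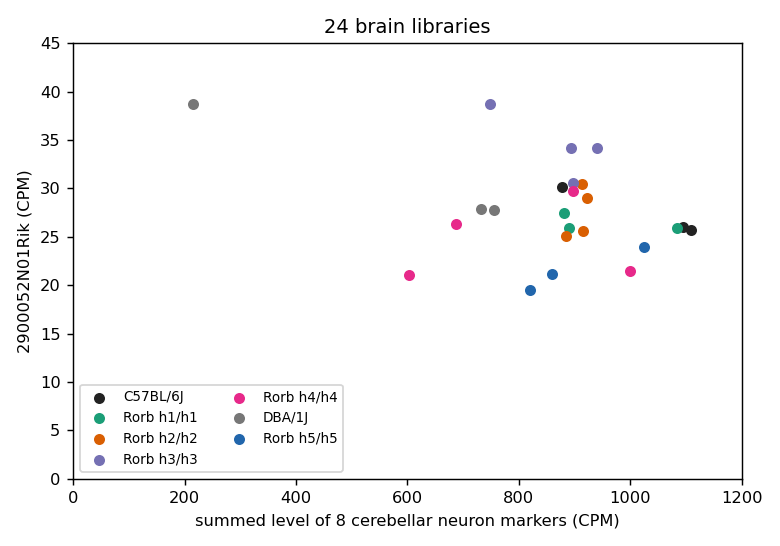
Level of 2900052N01Rik against the summed level of 8 cerebellar neuron markers in 24 brain libraries, both in CPM, colored by genotype. One DBA/1J brain stands alone at 215.6 CPM of the markers and 38.7 CPM of the gene, and the other 23 lie between 602.4 and 1109 CPM of the markers.

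Cerebellar neuron markers were set beside the gene in the hemisections. Within groups, the log2 level of the gene and of the cerebellar neuron sum had r = -0.47 over 24 brains and 0.0069 over 23 brains without DBA/1J replicate 1, and the median r of the single marker genes was still negative without that library, at -0.27. This is a description, in which the libraries share their groups and both values share the library total.

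Across the 20 group means, the genes most like 2900052N01Rik had more RNA in hippocampus, cortex and brain than in spinal cord, and least in cerebellum. Of 14799 genes with a mean of at least 1 CPM, 115 had a Pearson r above 0.95 with it, and the median over all was -0.091. The 8 highest, all at 0.98 when rounded, were Bcl11b, a transcription factor of deep-layer cortical and striatal neurons, Shisal1, Hes5, a Notch target of neural progenitors and astrocytes, Syt5, a synaptotagmin, Npas2, a clock transcription factor of the forebrain, Zfp831, Nsg2, a neuronal endosomal protein, and Cpne4, a copine. Bcl11b averaged 122.1 CPM in hippocampus, 85.6 in cortex, 73.2 in brain, 11.4 in spinal cord and 0.786 in cerebellum. Zfp831 averaged 59.7, 46.0, 28.3, 3.61 and 0.0766 CPM in the same order. These r reflect mainly the steps between tissues. Over the brain group means alone, r of the 8 with 2900052N01Rik ran from -0.37 for Zfp831 to 0.70 for Cpne4, with Shisal1 at 0.09. Over the spinal cord group means alone it ran from 0.17 for Zfp831 to 0.75 for Npas2. Within groups all 8 had a positive r with 2900052N01Rik, from 0.01 for Bcl11b to 0.37 for Zfp831, with Npas2 at 0.29 and Hes5 at 0.25.

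Within groups, few genes followed 2900052N01Rik closely. Over the 60 libraries outside cerebellum, Pearson r of deviations from group means was computed for 14775 genes averaging at least 1 CPM. By their labels these libraries come from 30 animals and so are not independent. The median r was -0.012, with 5% of genes under -0.26 and 5% above 0.24. Of these genes, 7 exceeded 0.5 and 5 fell under -0.5, and the extremes were 0.58 and -0.64. All are given as descriptions, with no p.

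The highest was Syt17, a synaptotagmin family gene, at r = 0.58 over all, 0.76 in brain, 0.64 in spinal cord and 0.44 in cortex and hippocampus. Ccdc112 followed at 0.56, then Lhx2, a LIM homeobox factor of forebrain and its glia, at 0.54, and Tceal5 at 0.54. Lhx2 was at 0.64 in brain, 0.55 in spinal cord and 0.48 in cortex and hippocampus. These genes were picked by r over the same libraries, so a shared sign between tissues is largely fixed by the choice. The rest of the first 10 were Fam98b, Gm26621, Pin4, a peptidyl-prolyl isomerase, 1700003M07Rik, 2900022M07Rik and Pkd1l3, from 0.51 down to 0.49. Less even was Pkd1l3, with 0.08 in brain and 0.58 in spinal cord. Without the h4 libraries it was at 0.11, 1700003M07Rik at 0.26, Gm26621 at 0.32, Pin4 at 0.34 and Ccdc112 at 0.37, whereas Syt17 stayed at 0.53 and Fam98b was at 0.64.

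The lowest was Slc43a2, an amino acid transporter, at r = -0.64, with -0.66 in brain, -0.62 in spinal cord and -0.86 in cortex and hippocampus. Next were Crocc2 at -0.58, Col18a1, a basement membrane collagen, at -0.57, Svep1 at -0.51 and Tubb4a, a tubulin abundant in oligodendrocytes, at -0.50. These 5 were negative in each tissue, Svep1 barely so in cortex and hippocampus, at -0.02. Their choice by r over the same libraries largely fixes this. Without the h4 libraries Slc43a2 was at -0.51 and Crocc2 at -0.41, whereas Col18a1 was at -0.67, Svep1 at -0.52 and Tubb4a at -0.54. Leaving out DBA/1J brain replicate 1 moved each of the 15 by at most 0.032.

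**Figure D4:**
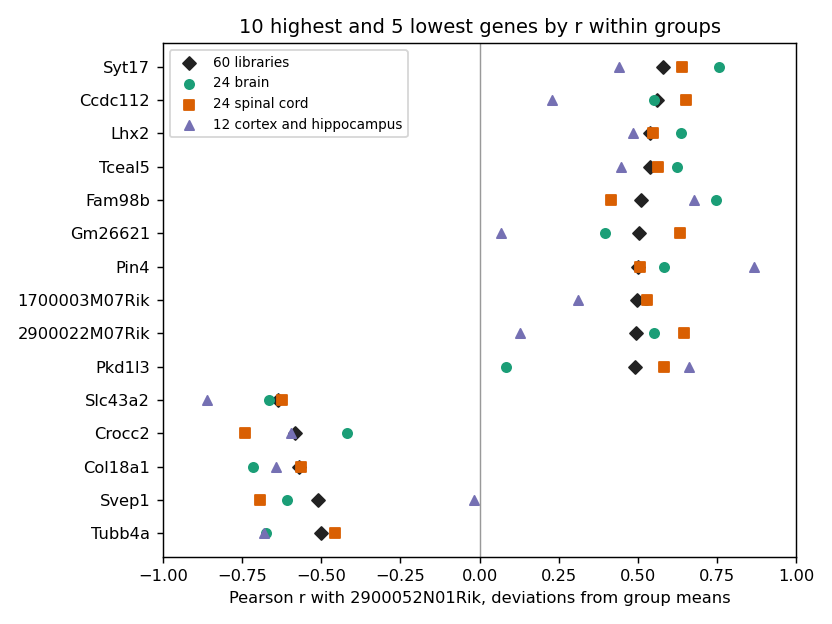
Pearson r with 2900052N01Rik of deviations from group means for the 10 highest and 5 lowest genes, over 60 libraries and in each tissue set alone. Signs were shared by all tissue sets for each of the 15 genes, with Pkd1l3 near 0 in brain (0.08) and Svep1 near 0 in cortex and hippocampus (-0.02). The genes were chosen by r over these same libraries, which largely fixes the shared signs.

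Genes that followed it in brain mostly did not do so elsewhere. The 50 genes with the highest r in brain had a median r of 0.72 there, which the choice fixes. Their median was 0.037 in spinal cord, where 26 of 50 were above 0 against 46.9% of all genes, and 0.16 in cortex and hippocampus, where 31 of 50 were above 0 against 48.2%.

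Cell type and pathway lists were then read the same way, beside the median of -0.012 and the 47.1% of all genes with a positive r. Oligodendrocyte genes had the lowest median, -0.32, with 0 of 14 positive, led by the myelin enzyme Cnp at -0.41, Fa2h, which hydroxylates myelin lipids, at -0.37, Mal at -0.37 and Ugt8a, which makes galactosylceramide, at -0.36. The median of this list was negative in brain (-0.30), spinal cord (-0.28), and cortex and hippocampus (-0.56). Choroid plexus genes were next, at -0.30 with 0 of 6 positive, among them Folr1 at -0.36 and Ttr, the transthyretin gene, at -0.29, but their median was -0.05 when means of group and labelled sex were removed. In brain the choroid plexus median was -0.18, or 0.03 without DBA/1J replicate 1. Meninges genes were at -0.20 with 0 of 6 positive, but in brain alone their median was 0.11 with 6 of 6 positive, and with means of group and labelled sex removed it was -0.08. Removing those means sets every library alone in its group and labelled sex to 0, so these medians rest on fewer libraries. They also use the female label of h5 replicate 3, which its RNA went against in cortex and hippocampus. By that label h5 replicate 2 was the only male of its group and was set to 0. In hippocampus it had the lowest choroid plexus sum, 149.7 CPM, so these medians are not a clean adjustment for sex.

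On the positive side, microglia genes had a median of 0.19 with 10 of 10 positive, led by the lysosomal protease gene Ctss at 0.46 and the complement gene C1qc at 0.28. This median was 0.56 in brain and 0.04 in spinal cord. Mitochondrially encoded genes were at 0.19 with 9 of 9 positive, and cytosolic ribosomal protein genes at 0.16 with 13 of 14. Nuclear long non-coding RNAs, which share its annotation as long non-coding, were at 0.14 with 7 of 8 positive, and Miat and Meg3 were at 0.23 and 0.20. Where in the cell 2900052N01Rik lies was not measured. Telencephalic astrocyte genes were at 0.15 with 4 of 5 positive, while general astrocyte genes were at -0.06 with 5 of 15.

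Cerebellar neuron genes had a median of -0.13, and of -0.58 in brain alone. Without DBA/1J brain replicate 1 these were 0.07 and -0.27. Pan-neuronal genes were at -0.01, glutamatergic forebrain neuron genes at 0.02, immediate early genes at 0.01, core clock genes at -0.01 and endoplasmic reticulum chaperones at -0.10. Inhibitory neuron genes were at -0.13 with 2 of 8 positive. In brain alone, beside 0.02 over all genes, glutamatergic forebrain genes had a median of 0.40 with 9 of 10 positive. Core clock genes were at 0.32 there with 9 of 12, and pan-neuronal genes at -0.24 with 2 of 8. In spinal cord the glutamatergic and clock medians were -0.01 and -0.12, and in cortex and hippocampus -0.03 and -0.20. Among single nuclear receptor genes, Rorb itself was at -0.04 and Rora, its close relative, at -0.18. For Rorb the tissues differed in sign, with r of 0.72 in brain, -0.36 in spinal cord and -0.19 in cortex and hippocampus.

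**Figure D5:**
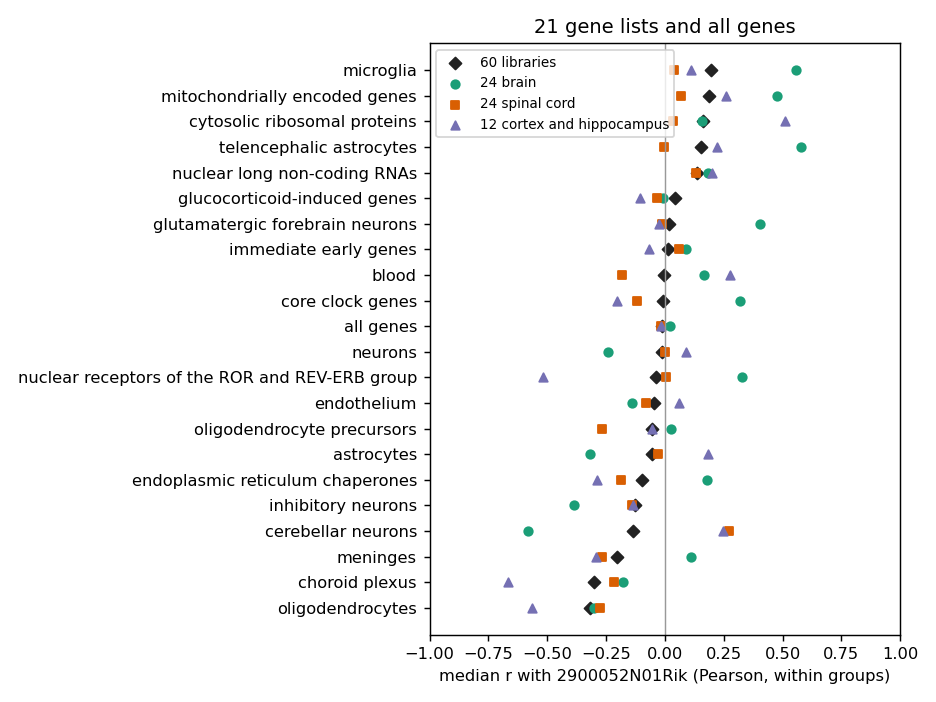
Median Pearson r with 2900052N01Rik for 21 gene lists and for all genes, over 60 libraries and in each tissue set alone, from deviations from group means. Oligodendrocyte, choroid plexus and inhibitory neuron genes are negative in every set. Microglia, mitochondrially encoded, cytosolic ribosomal protein and nuclear long non-coding RNA genes are positive in every set.

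Of the 5 neighbours of the gene on each side on chromosome 9, none had its pattern of expression in brain with near absence from cerebellum. On the side before it, 4931429L15Rik, 4930448E22Rik, Gm22659 and Gm22805 were at or near zero, with at most 0.23 CPM in any library. Bud13, a splicing factor gene, was expressed evenly, at 7.65 CPM in brain, 6.68 in spinal cord and 11.4 in cerebellum. On the other side, Gm4791 had 0 counts in every library, Nxpe2 and Gm5616 stayed below 1 CPM, and Nxpe4 was at 9.53 CPM in brain and 12.8 in spinal cord. Cadm1, a synaptic adhesion molecule, was the one neighbour with a high level, at 171.4 CPM in brain, 228.8 in hippocampus, 110.0 in spinal cord and 131.3 in cerebellum. Within groups, r with 2900052N01Rik was 0.28 for Cadm1, 0.09 for Nxpe4 and 0.07 for Bud13. A later annotation (GENCODE M39) places a further transcript, Gm31614, over the gene on the same strand, which has no row of its own in the tables, and reads of overlapping transcripts cannot be told apart here.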

How the data were processed

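Expected counts, which are estimated fragments per gene, were made by the authors with RSEM after trimming with Trim Galore and alignment to GRCm38, and were deposited per library with TPM values, which the authors' RSEM run normalized for length and depth. The gene annotation release and the strand setting of the counting are not given in the sources used here. Of the expected counts, 5.07% were not whole, and they were rounded before testing. The deposited FPKM values were not used. Symbols were joined by identifier from GENCODE M39 to 41407 of 45706 genes.

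CPM are expected counts over the library total. Each comparison was fitted over all genes with edgeR 4.0.16 in R 4.3.3 (TMM scaling, filterByExpr, quasi-likelihood test without covariates, Benjamini-Hochberg threshold of 0.05), and DESeq2 1.42.0, the authors' tool, was an alternative. Other alternatives were DESeq2 size factors, no low-count filter, labelled sex, the replicate number as a block, joint fits and leaving out each library. Exact permutation tests used CPM. Correlations used log2 CPM (TMM, prior count 2) after removing group means. The fits and correlations were tested on simulated data. The gene and all lists were chosen with earlier results of these data known. Genes named were the gene, Rorb, the 8 most like it across group means, the 10 highest and 5 lowest by r within groups, 5 neighbours on each side and up to 4 members of a list with the largest r in size. Wfs1, Fezf2, Gabra6, Ddx3y and Xist serve as tissue and sex checks. Some listed names, such as Ttr and Rora, are members of those 21 lists.

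Same-numbered brain and spinal cord libraries of a genotype came from 1 animal, and so did same-numbered cortex, hippocampus and cerebellum libraries. By labelled age, the dissected regions came from other animals than the hemisections and cords. The authors state instead that h5 brains were cut sagittally, part being frozen and the rest dissected into regions. The labels were followed here. Between mutants and controls, same-numbered libraries deviated together in every pair (r from 0.49 to 0.86) for h1 and h4 in brain and spinal cord, and not for the other contrasts. Of 78 pairs of replicates, 0 were identical. Libraries are single animals, and every labelled library was kept.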

Additional observations from a re-analysis of the deposited data

How the results depend on the processing

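Of 146 alternative fits of the 12 tested comparisons, 141 kept the direction, and 136 of the 140 of these with an adjusted p kept the side of the threshold. All 71 alternative fits of the 7 comparisons given without a test kept the direction. The h3 brain difference passed in DESeq2 alone (log2 fold change 0.33, adjusted p = 0.0264), its adjusted p in the other settings reaching 0.536. Hippocampus against cortex passed in DESeq2 (0.42, adjusted p = 0.0458). In h1 spinal cord DESeq2 gave no adjusted p. With the replicate number as a block, the h3 spinal cord value turned to -0.045, and the block changed no other direction and no call, the h2 spinal cord value being -0.47 (edgeR adjusted p = 0.0710).

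Leaving out single libraries gave log2 fold changes from -0.094 to 0.040 in h1 brain, from -0.022 to 0.11 in h2 brain and from -0.040 to 0.14 in h3 spinal cord, whose directions turned without C57BL/6J replicate 3, without C57BL/6J replicate 2 or h2 replicate 1, and without h3 replicate 4. The range was -0.46 to -0.26 in h2 spinal cord, which passed without h2 replicate 4, and 0.24 to 0.53 in hippocampus against cortex, which passed without cortex replicate 3 (edgeR adjusted p = 0.0465). The cause was not tested.

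Chosen after seeing the data, the fit without the h4 animals turned the correlation between brain and spinal cord to -0.22. The median r of oligodendrocyte genes, -0.32, was -0.18 over all 66 libraries, -0.56 in cortex and hippocampus and, also chosen afterwards, -0.56 in brain without DBA/1J replicate 1. Over the lists, 69 of 189 alternative medians moved by more than the SD of r among members, so list medians differ with the tissue. Depth limits cerebellum most, at 3 to 25 counts a library.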
